A study of Mus musculus with 4 samples.

Results

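Heme, the iron porphyrin that serves as the prosthetic group of cytochromes, catalase and hemoglobin, is assembled and taken apart by a short chain of enzymes, and 9 of the genes for them were followed here in mouse liver: Alas1, Alad, Uros, Urod, Cpox, Ppox and Fech of synthesis, and Hmox1 and Blvrb of breakdown. They were chosen by name as enzymes of the route, with earlier results of these data known. They were found on the array through their symbol, current or older, which gave 15 probe sets for 9 of the 12393 named genes. All 15 were found through the array table's own symbol and 0 through an older synonym alone. Alas1, Cpox, Ppox and Fech have more than 1 probe set, and the brightest by its mean over the arrays stands for the gene unless another is named.

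Liver RNA came from male mice of 12 to 20 weeks that were either wild-type (129S1/SvImJ) or PPARα-null (129S4/SvJae). Each genotype received normal food or food with 0.1% Wy14643, a synthetic agonist of the nuclear receptor PPARα, for 5 days. Groups had 5 mice by the design; liver RNA of 4 to 5 mice was pooled within a group and hybridized to 1 Affymetrix MOE430A array, so there are 4 arrays and no replicates. No p-value is given, and having 1 array for each group is what bounds the precision of the ratios. Arrays are called treated (Wy14643) and untreated (normal food) hereafter. The labels give the genotypes different substrains, so the effects of genotype and substrain cannot be told apart. For the treated wild-type array the labels' description field carries the text of the untreated one, and its title was followed. Ppara itself had an intensity of 847 on the untreated and 1250 on the treated wild-type array, and 326 on the untreated and 428 on the treated PPARα-null array. Signal therefore remained in both PPARα-null pools, and whether the deletion removes its target is not given in the sources used here.

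Heme synthesis begins in mitochondria, where the product of Alas1 joins glycine and succinyl-CoA in the step that limits the rate in liver. It goes on in the cytosol through porphobilinogen and uroporphyrinogen and returns to mitochondria, where ferrochelatase inserts the iron. In liver much of the heme goes into cytochromes P450, and heme itself holds back Alas1. Heme oxygenase opens the ring to give biliverdin, carbon monoxide and iron, and biliverdin reductases turn biliverdin into bilirubin, which hepatocytes conjugate and send to bile.

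Promoter sequences from RefSeq (build GRCm38.p6, 250 bases before to 50 after an annotated start) were matched to 7 of the 9 genes, with 11 windows in all because Alas1, Alad, Uros and Blvrb have 2 annotated starts each. Those of Alas1, Alad and Blvrb are shown because these genes are the first enzyme, the only synthesis gene that passed 1.5-fold on Wy14643 in wild-type mice, and the member with the largest ratio. The first window of each gene in the table is printed, 5′ to 3′, and capitals mark matches on either strand to 4 motifs, of which all but AGGTCA were chosen after the promoters had been seen.

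Alas1 (GRCm38.p6, chr9:106247905-106248204, minus strand): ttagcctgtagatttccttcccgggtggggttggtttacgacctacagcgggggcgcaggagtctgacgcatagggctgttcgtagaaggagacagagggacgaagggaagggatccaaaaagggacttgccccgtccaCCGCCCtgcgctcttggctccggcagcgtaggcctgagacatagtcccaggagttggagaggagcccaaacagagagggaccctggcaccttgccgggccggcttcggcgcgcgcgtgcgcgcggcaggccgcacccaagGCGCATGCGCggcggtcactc

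Alad (GRCm38.p6, chr4:62520014-62520313, minus strand): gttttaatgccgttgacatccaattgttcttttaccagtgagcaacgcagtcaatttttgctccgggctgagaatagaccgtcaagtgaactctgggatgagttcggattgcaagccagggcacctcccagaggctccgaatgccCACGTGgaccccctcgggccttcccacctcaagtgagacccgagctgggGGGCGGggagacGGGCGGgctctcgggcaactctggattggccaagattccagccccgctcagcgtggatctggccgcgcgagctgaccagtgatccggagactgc

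Blvrb (GRCm38.p6, chr7:27447728-27448027, plus strand): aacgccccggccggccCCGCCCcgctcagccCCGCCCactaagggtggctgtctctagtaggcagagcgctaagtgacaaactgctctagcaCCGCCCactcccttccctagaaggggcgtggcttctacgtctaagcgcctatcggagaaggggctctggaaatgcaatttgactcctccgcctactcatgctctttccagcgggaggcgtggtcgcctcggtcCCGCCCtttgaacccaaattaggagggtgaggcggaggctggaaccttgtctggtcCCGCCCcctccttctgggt

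The motifs searched were AGGTCA, the hexamer of which a pair forms a PPAR response element, the E-box CACGTG, the NRF-1 core GCATGCGC and the GC box GGGCGG. The first of these, AGGTCA, was found in 0 of the 11 windows, against 16.3% of 32817 windows of the same length. The E-box was found in 4 of the 11 windows, of Alad (both starts), Urod and Uros, against 7.15% of all windows. The NRF-1 core occurred in both Alas1 windows, which share the stretch that holds it, against 2.71% of all windows, and there its matches on the 2 strands overlap each other. GC boxes were present in 7 of the 11 windows, against 35.6% of all windows, and those in the second Alad window overlap in part. The 2 Alad windows also share a stretch, so GC boxes at -56 and -44 in the first are those at -210 and -198 in the second. Because every motif but AGGTCA was chosen after the promoters had been seen, these shares do not measure enrichment. No match of one motif overlapped a match of another. A match describes the letters of these windows, and the absence of a match says nothing of sites elsewhere.

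Values are intensities on the linear scale. Background was set at 13.4, below which lay 90% of 70 probe sets for 44 genes known to be silent in liver. Against it, 9 of 9 genes were above background on all 4 arrays, as were 13 of the 15 probe sets, while 1 probe set each of Ppox and Fech lay below it on all 4. Because bulk liver RNA was measured, fewer cells of a type and less RNA per cell cannot be told apart in any of these values. Ratios were called higher or lower at 1.5-fold, a log2 ratio of 0.58. As a gauge of how far arrays with few differences stand apart, the log2 ratios of all probe sets had a standard deviation of 0.28 between the PPARα-null arrays and 0.26 between the untreated arrays, against 0.64 between the wild-type arrays and 0.72 between the treated arrays.

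**Figure D1:**
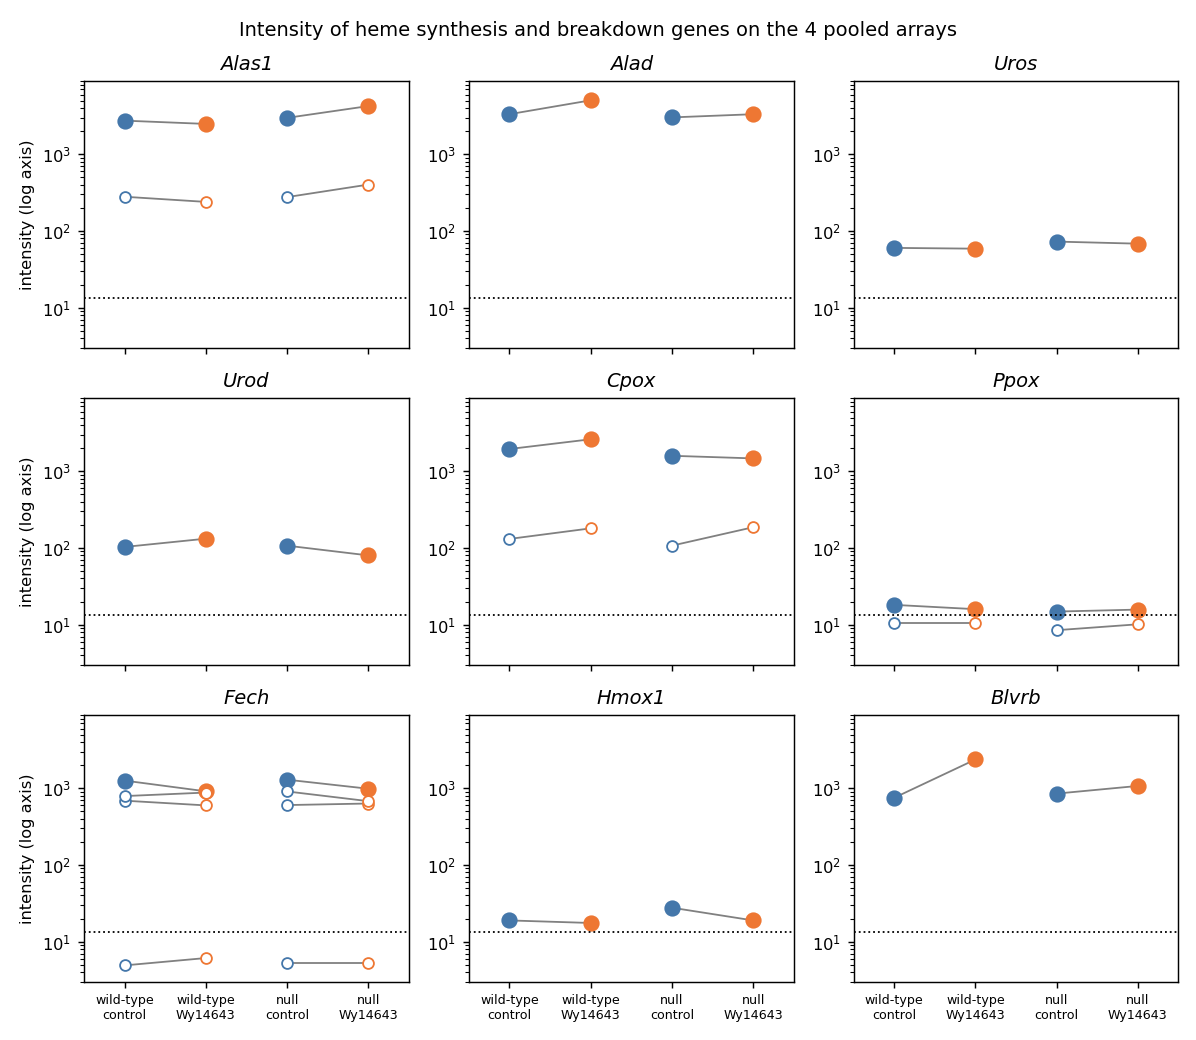
Intensity (log axis) of the 9 genes on the 4 pooled arrays, control diet in blue and Wy14643 in orange. Filled points are the brightest probe set of a gene, open points its other probe sets, lines join the diets within a genotype and the dotted line is background at 13.4; levels of different probe sets are not comparable. The wild-type Wy14643 point of Blvrb, at 2371, stands apart from the other 3.

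Within wild-type mice, 2 of the 9 genes were at least 1.5-fold higher with treatment than without, namely Blvrb and Alad, and 0 were lower. Over all 12393 named genes, 9.38% were higher and 10.0% lower in this comparison. Among the 7471 genes above background on at least 1 of these 2 arrays, which is the fairer base for genes of this brightness, the shares were 15.2% and 16.2%. The median log2 ratio of the 9 genes was -0.04, against 0.04 over all named genes.

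Within PPARα-null mice, 0 of the 9 genes were higher and 0 lower on Wy14643, where 1.49% of all named genes were higher and 2.74% lower. On the control diet, too, 0 of the 9 differed by 1.5-fold between the genotypes, where 1.49% of all named genes stood higher and 1.51% lower in the wild-type pool. On Wy14643, by contrast, 4 of the 9 were higher in the wild-type pool than in the PPARα-null one (Alad, Urod, Cpox and Blvrb) and 1, Alas1, was lower. Over all named genes 10.4% were higher and 11.2% lower there, and among the 7537 above background on either array 16.9% and 18.0%. These comparisons share arrays with one another, so the members' values are given side by side below and their overlap is not read as a result.

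**Figure D2:**
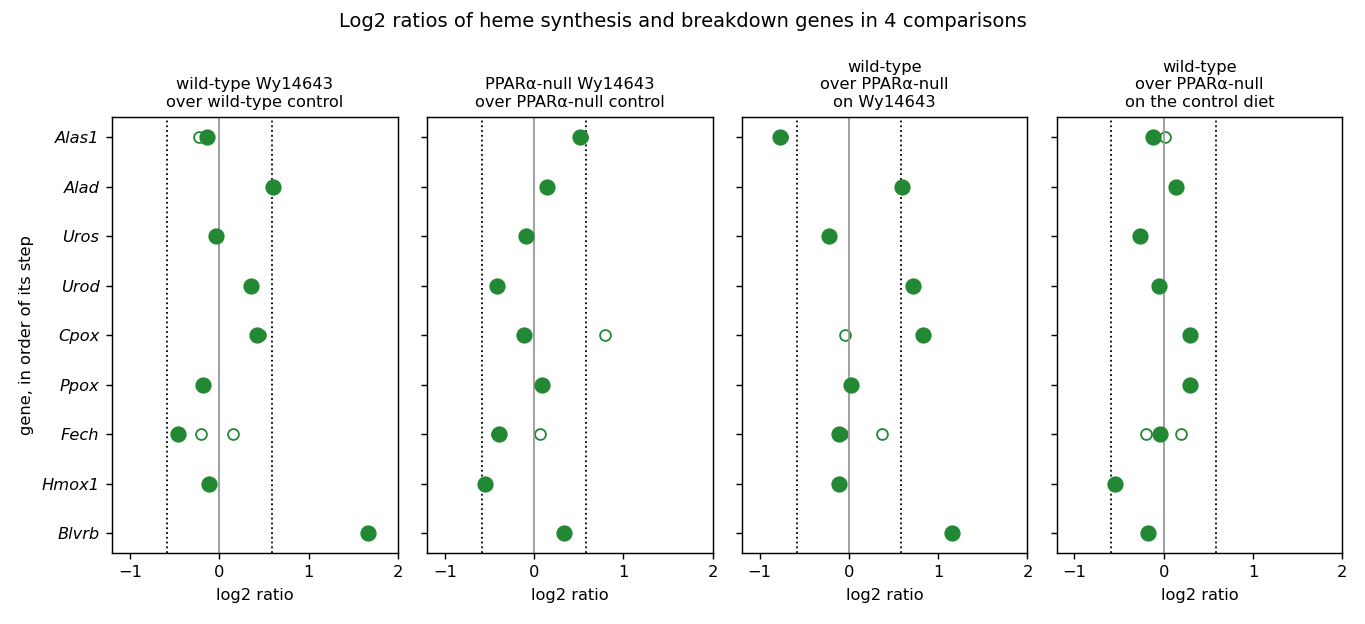
Log2 ratio of the 9 genes (vertical, in order of their step) in the 4 comparisons. Filled points are the brightest probe set, open points other probe sets above background, and dotted lines mark 1.5-fold; on Wy14643 the genotypes stood 1.15 apart for Blvrb and -0.77 for Alas1, while on the control diet every point shown lay within the dotted lines.

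Alas1 encodes the housekeeping form of 5-aminolevulinate synthase, which makes the committed precursor of all porphyrins. Its intensity was 2741 on the untreated and 2484 on the treated wild-type array, and 2979 on the untreated and 4244 on the treated PPARα-null array. The first 3 values lie close together and the PPARα-null Wy14643 array stands above them. In PPARα-null mice Alas1 was 1.42-fold higher with treatment than without, under the threshold, a log2 ratio of 0.51 that 3.63% of 6481 genes above background on all 4 arrays reached or passed in the same direction. In wild-type mice the log2 ratio was -0.14. With treatment, Alas1 was 1.71-fold lower in the wild-type pool than in the PPARα-null one, by a log2 ratio of -0.77 that 13.9% of those 6481 genes reached or passed.

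The dimmer Alas1 probe set gave 279, 239, 276 and 402 on the same arrays in the same order. Both probe sets thus placed the PPARα-null Wy14643 array highest and the wild-type Wy14643 array lowest. The log2 response to Wy14643 in wild-type mice minus that in PPARα-null mice was -0.65 by the brighter and -0.77 by the dimmer probe set. Part of these probe sets' likeness is built in, since they read the same RNA.

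Alad encodes 5-aminolevulinate dehydratase, the cytosolic enzyme that joins 2 molecules of aminolevulinate into porphobilinogen. Its intensity was 3326 on the untreated and 5046 on the treated wild-type array, and 3020 on the untreated and 3323 on the treated PPARα-null array. Here the wild-type Wy14643 array stood above the other 3. Alad was 1.52-fold higher with treatment in wild-type mice and 1.10-fold higher in PPARα-null mice, and on Wy14643 it was 1.52-fold higher in the wild-type pool than in the PPARα-null one. These ratios lie just past the threshold, and with cyclic loess between the arrays neither was called any longer, the one between the genotypes being 0.57 on the log2 scale.

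Uros, whose product closes the porphyrin ring, had an intensity of 60.1 on the untreated and 58.7 on the treated wild-type array, and 72.6 on the untreated and 68.2 on the treated PPARα-null array. The diets differed little in either genotype, with log2 ratios of -0.04 and -0.09, and the wild-type arrays were both a little below the PPARα-null arrays. Its 4 log2 values spanned 0.31, the second narrowest span among the 9 genes after the 0.29 of Ppox.

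Urod encodes uroporphyrinogen decarboxylase, which removes the acetate carboxyl groups in the cytosol. Its intensity was 103 on the untreated and 132 on the treated wild-type array, and 107 on the untreated and 79.9 on the treated PPARα-null array. The control arrays were nearly level, the wild-type Wy14643 array was the highest and the PPARα-null Wy14643 array the lowest. The log2 ratio of Wy14643 over control was 0.36 in wild-type and -0.42 in PPARα-null mice, neither past the threshold. Between the genotypes on Wy14643, Urod was 1.65-fold higher in wild-type mice (log2 ratio 0.72), but with 32 added to each intensity the log2 ratio was 0.55, under the threshold.

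Cpox encodes coproporphyrinogen oxidase of the mitochondrial intermembrane space. By the brighter probe set its intensity was 1948 on the untreated and 2610 on the treated wild-type array, and 1590 on the untreated and 1470.0 on the treated PPARα-null array. By the dimmer one it was 131, 180, 107 and 186 in the same order. The probe sets ran alike on 3 arrays and parted on the PPARα-null Wy14643 array, which was the lowest by the brighter and the highest by the dimmer one. Wild-type mice on Wy14643 were accordingly 1.78-fold higher than PPARα-null mice by the brighter probe set, and the log2 ratio was -0.04 by the dimmer, so this call rests on 1 probe set. In wild-type mice the probe sets gave log2 ratios of 0.42 and 0.46 with treatment.

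Ppox, which encodes protoporphyrinogen oxidase of the inner mitochondrial membrane, was close to background throughout. Its brighter probe set gave 18.1 on the untreated and 15.9 on the treated wild-type array, and 14.8 on the untreated and 15.7 on the treated PPARα-null array. At this signal a difference in Ppox was not detectable. With background set at the 95th percentile of the same silent genes, an intensity of 15.9, 8 of the 9 genes remained above it on all 4 arrays and Ppox did not.

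Fech encodes ferrochelatase, the last enzyme of the route. By its brightest probe set the intensity was 1257 on the untreated and 911 on the treated wild-type array, and 1292 on the untreated and 985 on the treated PPARα-null array. Both Wy14643 arrays were below both control arrays, by log2 ratios of -0.46 in wild-type and -0.39 in PPARα-null mice, neither past the threshold. The other 2 probe sets above background did not follow this pattern. In wild-type mice they gave log2 ratios of -0.20 and 0.15 with treatment, and in PPARα-null mice 0.07 and -0.42.

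Hmox1 encodes the inducible heme oxygenase, which in liver is prominent in Kupffer cells, the resident macrophages that clear old red cells. Its intensity was 18.9 on the untreated and 17.5 on the treated wild-type array, and 27.7 on the untreated and 18.9 on the treated PPARα-null array, so it lay near background on every array. The PPARα-null control array stood above the other 3. The log2 ratio of Wy14643 over control was -0.11 in the wild-type and -0.55 in the PPARα-null pair, and adding 32 to each intensity brought the latter to -0.23. Of 10 measured Kupffer cell markers, 8 were at least 1.5-fold lower with treatment in wild-type mice (with a median log2 ratio of -1.58), 1 of which, Cd68, had no signal above background, and 8 were lower in PPARα-null mice (median -0.87). Their summed intensity was 1096 on the untreated and 433 on the treated wild-type array, and 1307 on the untreated and 667 on the treated PPARα-null array, with Marco and Cd68 below background on all 4 arrays. The part of these cells in the Hmox1 values was not tested.

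Blvrb encodes biliverdin reductase B, a cytosolic flavin reductase that also acts on biliverdin isomers and is abundant in red cells. Its intensity was 751 on the untreated and 2371 on the treated wild-type array, and 851 on the untreated and 1071 on the treated PPARα-null array. The wild-type Wy14643 array was far above the other 3, among which the PPARα-null Wy14643 array was the highest. Blvrb was 3.16-fold higher with treatment in wild-type mice, where 2.28% of the 6481 genes reached or passed its log2 ratio of 1.66, and 1.26-fold higher in PPARα-null mice. Between the genotypes it was 2.21-fold higher in treated wild-type mice (log2 ratio 1.15), and the log2 ratio was -0.18 on the control diet. The response in wild-type mice exceeded that in PPARα-null mice by 1.33 on the log2 scale, a ratio of 2.51, which was the widest gap of responses among the 9 genes, and this difference was not tested.

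**Figure D3:**
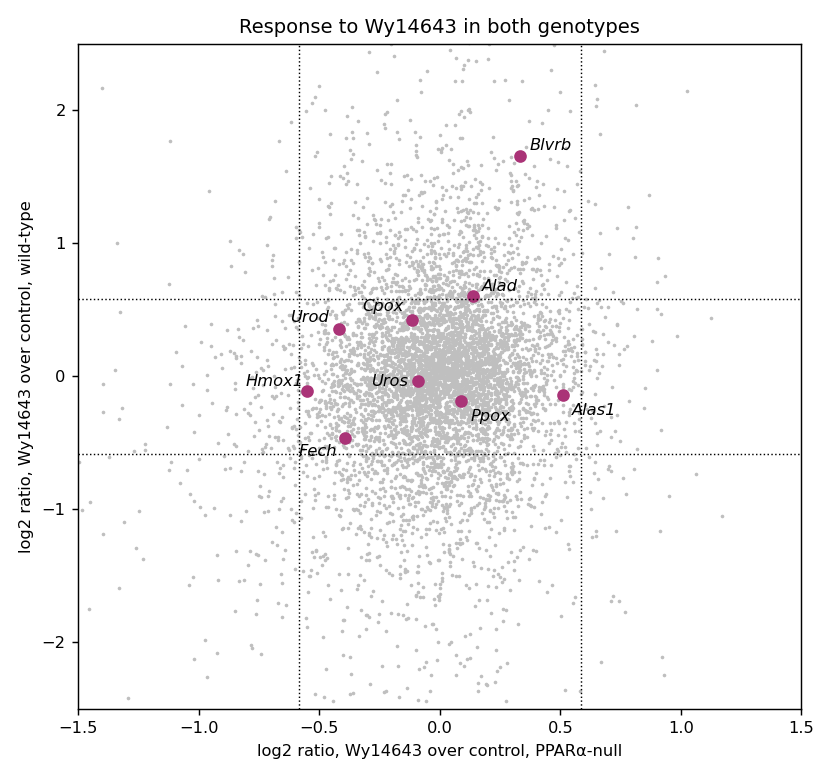
Log2 ratio of Wy14643 over control on the horizontal axis for PPARα-null and on the vertical axis for wild-type mice; grey points are the 6481 genes above background throughout, with the 9 heme genes in purple; dotted lines mark 1.5-fold and 153 genes lie outside the axes. Blvrb stands highest at 1.66, and Alas1 lies farthest to the right of the 9 at 0.51.

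Red cell precursors also make heme and carry Alad, Fech and Blvrb, so their markers are given beside these genes. Of 9 measured erythroid markers, 6 were below background on all 4 arrays, among them Hba-a1, Klf1, Gata1 and Rhag. The erythroid synthase gene Alas2 had an intensity of 15.1 on the untreated and 11.0 on the treated wild-type array, and 15.5 on the untreated and 13.6 on the treated PPARα-null array. The summed intensity of the 9 markers was 149, 168, 133 and 173 in the same order. Tfrc alone gave 70.6, 92.5, 55.7 and 92.5, more than any other of the 9, so the sums largely follow this gene. With treatment 0 of the 9 were higher or lower in wild-type mice, and 1, Tfrc, was higher in PPARα-null mice. The part of these cells in the values of Alad, Fech and Blvrb was not tested. Of 9 hepatocyte markers, all of them above background on every array, 0 were higher and 4 lower with treatment in wild-type mice (with a median log2 ratio of -0.54), and 0 were higher and 0 lower in PPARα-null mice. The 4 were Cps1, Tat, Pck1 and G6pc. The other 5 had log2 ratios from -0.54 (Hnf4a) to 0.54 (Tdo2) in wild-type mice, with Alb at 0.34, Apoa1 at 0.03 and Ttr at -0.15.

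Over the 6480 other genes above background on all 4 arrays, those nearest to Blvrb in pattern were 2010003K11Rik and Atxn10, with Euclidean distances of 0.10 and 0.13 between log2 values centred on each gene's mean over 4 arrays. Blvrb was the only member whose log2 values spanned at least 1, so no other member was matched in this way. Atxn10 had an intensity of 643 on the untreated and 1941 on the treated wild-type array, and 686 on the untreated and 812 on the treated PPARα-null array. A likeness over 4 arrays describes these arrays only.

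Around the 9 genes, 24 of 30 listed genes of heme handling could be measured: enzymes of the same steps, mitochondrial and plasma membrane transporters, heme-binding proteins and enzymes that attach or modify heme. The other 6 were not analysed here. On Wy14643 in wild-type mice 5 of the 24 were higher (Abcb6, Tspo, Slc48a1, Abcg2 and Hccs) and 5 lower (Blvra, Slco1b2, Slc25a28, Clpx and Hebp1), with a median log2 ratio of 0.17. In PPARα-null mice 0 were higher and 0 lower (median 0.08), and between the untreated arrays likewise 0 and 0. Between the genotypes on Wy14643, 5 stood higher and 6 lower in the wild-type pool. The shares over all named genes given above are the background for these counts. The call of Slc48a1 in them rests on the choice of probe set, as described below.

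Among enzymes of the same steps, Blvra, the main adult biliverdin reductase, ran opposite to Blvrb: its intensity was 26.7 on the untreated and 17.6 on the treated wild-type array, and 31.6 on the untreated and 29.3 on the treated PPARα-null array. It was 1.52-fold lower with treatment in wild-type mice, at a low signal and just past the threshold. Hmox2, the constitutive heme oxygenase, gave 460.0, 412, 456 and 499 in the same order, log2 ratios of -0.16 in wild-type and 0.13 in PPARα-null mice, so neither heme oxygenase gene was called higher on Wy14643.

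Transporter genes held the largest differences. Abcg2, whose product exports porphyrins and many drugs, had an intensity of 447 on the untreated and 3593 on the treated wild-type array, and 361 on the untreated and 345 on the treated PPARα-null array. It was 8.04-fold higher with treatment in wild-type mice, and the wild-type Wy14643 array stood apart from the other 3, which were nearly level. Abcb6, a porphyrin transporter gene, gave 267, 532, 264 and 246 in the same order and was 1.99-fold higher in wild-type mice. Slc48a1, which moves heme out of lysosomes, was 3.79-fold higher in wild-type mice by the probe set with the higher mean. That probe set gave 24.1, 91.4, 27.7 and 21.9 in the same order. The other gave 32.4, 29.7, 32.4 and 34.5, a log2 ratio of -0.13 in wild-type mice, so the probe sets disagree. The first has the higher mean only through the wild-type Wy14643 array, so the choice of probe set depends on the value reported. Tspo, a porphyrin-binding protein of the outer mitochondrial membrane, was 2.12-fold higher with treatment in wild-type mice by its brightest probe set, and its other probe sets gave 1.67-fold and 1.53-fold. In PPARα-null mice the brightest Tspo probe set was 1.49-fold higher with treatment (303 to 451), just under the threshold. The other Tspo probe sets gave log2 ratios of 0.02 and -0.03 there. Slco1b2, an uptake transporter for bilirubin and other anions, was 2.63-fold lower with treatment in wild-type mice, and the mitochondrial iron importer gene Slc25a28 was 1.5-fold lower.

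Genes for proteins that handle heme or its enzymes inside the cell were divided. Hccs, which attaches heme to cytochrome c, had an intensity of 39.6 on the untreated and 93.3 on the treated wild-type array, and 39.6 on the untreated and 41.7 on the treated PPARα-null array, and its dimmer probe set showed a ratio of 2.15 beside 2.36 for this one in wild-type mice. Clpx, a mitochondrial unfoldase that acts on aminolevulinate synthase, gave 1034, 480.0, 1077 and 983 in the same order and was 2.16-fold lower with treatment in wild-type mice. Hebp1, a heme-binding protein gene, was 1.98-fold lower there. Between the genotypes on Wy14643, Tmem14c, which imports protoporphyrinogen into mitochondria, was 1.64-fold higher and the glycine carrier gene Slc25a38 1.62-fold lower in wild-type mice, the latter near background.

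**Figure D4:**
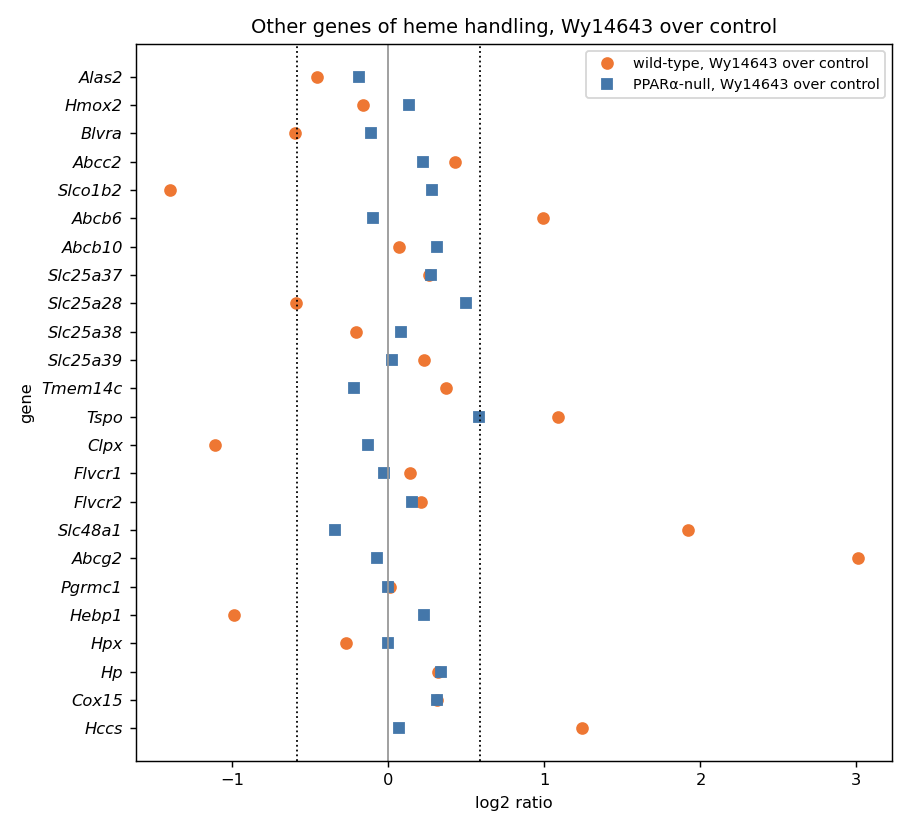
Log2 ratio of Wy14643 over control for 24 other genes of heme handling (brightest probe set) in wild-type (orange circles) and PPARα-null mice (blue squares), with dotted lines at 1.5-fold. Abcg2 stands highest at 3.01 in wild-type mice and Slco1b2 lowest at -1.40, whereas 0 of the 24 passed the lines in PPARα-null mice.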

How the data were processed

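The deposited values are intensities made by the authors with GCRMA (version 2.20 by the submitters' processing notes), a method that removes background, quantile-normalizes arrays and combines the probes of a probe set. They are linear and were taken to log2 here. Which arrays were normalized together is not given in the sources used here. The table holds 22690 probe sets; without 64 Affymetrix controls, 22626 entered the calculation. The array's annotation gives 20380 of these 1 gene symbol, 691 several and 1555 none, and those with several were not named. Named are the members with every probe set, Ppara, genes of the heme handling list past 1.5-fold or acting at a member's step, and the 2 genes nearest in pattern to a member whose log2 values span at least 1. Members and lists were chosen with earlier results of these data known. The lists were heme handling, regulators of Alas1, heme proteins, Nrf2 targets and markers of 8 cell types. The 1.5-fold threshold is that of the study's methods for pooled arrays. Alternatives were a 2-fold threshold, filters and a floor for dim signals, 32 added to each intensity, centring, cyclic loess (limma 3.58.1 in R 4.3.3) and other probe sets of a gene. Python 3.11.15 with pandas 2.3.3 and numpy 2.4.6 did the rest, tested on simulated data, and matplotlib 3.10.9 drew the plots.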

Additional observations from a re-analysis of the deposited data

Results flagged for a closer look

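Urod had opposite directions in the genotypes: the log2 ratio of Wy14643 over control was 0.36 in wild-type and -0.42 in PPARα-null mice, a difference of 0.77. The PPARα-null ratio exceeds 0.28, the standard deviation over all probe sets of its pair of arrays. The wild-type ratio lies within the 0.64 of its own pair. Neither reaches 1.5-fold. Of the 6481 genes above background throughout, 24.7% reached or passed the wild-type ratio and 9.01% the PPARα-null ratio, each in the same direction. With 1 array per group the difference was not tested.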

How the results depend on the processing

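No paired analysis was possible because each group has 1 array. Of 80 recalculated counts of members, 75 stayed within 1.5 times the count reported. Part of this was fixed in advance. All 9 genes were above background on all 4 arrays, so the filter and the floor at that background could alter no count. A stricter threshold can only lower a count, so it could not change a count of 0. With a 2-fold threshold, 1 gene (Blvrb) was higher with treatment in wild-type mice, and between the genotypes on Wy14643 1 was higher and 0 lower. With cyclic loess 1 gene was higher with treatment in wild-type mice, Alad being lost. The count of 4 genes higher in wild-type mice between the genotypes on Wy14643 became 3 under each of 4 alternatives: with 32 added to each intensity Urod was lost (log2 ratio 0.55), with cyclic loess Alad (0.57), and with the median over probe sets (0.39) or the second brightest probe set Cpox. With the second brightest probe set 1 gene, Cpox, was higher in PPARα-null mice (log2 ratio 0.79) and stood at -0.04 between the genotypes on Wy14643, where the brightest gave 0.83. The difference between the genotypes' log2 responses moved for Cpox from 0.54 to 0.10 (median over probe sets) and -0.33 (second brightest), and for Fech from -0.07 to 0.57 (second brightest, and likewise without s_at, x_at and a_at probe sets); 59 of 63 such recalculated differences moved by less than the square root of 2 times the standard deviation of the PPARα-null pair. That of Blvrb ranged from 1.27 to 1.33 and that of Alas1 from -0.77 to -0.65. Of 252 recalculated log2 ratios of single members, 241 moved by less than 1 such standard deviation, 10 by more, and 1 that had passed 1.5-fold, of Cpox as above, changed sign. Many of these ratios and differences could not move. The floor left every gene as it was, and a gene with 1 probe set has no other to put in its place. The tallies of ratios and differences therefore do not measure stability. Among ratios under the threshold, the ratio of Fech in wild-type mice ranged from -0.48 to 0.15. Centring shifted the median of all probe sets by at most 0.06 and cyclic loess by at most 0.03 on the log2 scale. The probe sets of Ppox and Hmox1 lay near background, which limits what can be seen of them.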

Other observations

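Of 10 listed regulators of Alas1, 0 were higher and 2 lower with treatment in wild-type mice (with a median log2 ratio of -0.19); in PPARα-null mice 0 were higher and 1 lower (median -0.10). The 2 are named here after their values were seen. Ppargc1a, a coactivator known to raise Alas1 in fasting, had an intensity of 50.4 on the untreated and 19.6 on the treated wild-type array, and 41.2 on the untreated and 28.7 on the treated PPARα-null array. In PPARα-null mice its direction depended on the probe set: this one, the brightest, was 1.44-fold lower with treatment, and another above background on all 4 arrays was 1.35-fold higher (23.9 to 32.1). Lpin1, which works with it, gave 1191, 109, 1723 and 983 in the same order, lowest on the wild-type Wy14643 array. In PPARα-null mice Lpin1 was 1.75-fold lower with treatment, where Alas1 was 1.42-fold higher. The part of either regulator in the Alas1 values was not tested.

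Of 22 measured genes for heme proteins and their partners, 2 were higher and 7 lower with treatment in wild-type mice (with a median log2 ratio of 0.02), and 2 were higher and 2 lower in PPARα-null mice (median -0.01). Of 14 measured Nrf2 targets, a list often read beside Hmox1 and Blvrb, 6 were higher and 2 lower with treatment in wild-type mice (median 0.33), and 3 were higher and 0 lower in PPARα-null mice (median 0.20). Slc48a1 belongs to this list and to that of heme handling, and its call as higher in both rests on the choice of probe set, as described above.

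Among markers of other cell types, 3 of 8 stellate cell markers were lower with treatment in wild-type mice and 3 higher in PPARα-null mice. Of 7 sinusoidal endothelium markers 2 and 3 were lower, in that order, with 0 higher. Of 7 neutrophil markers 0 were higher in wild-type and 4 in PPARα-null mice (1 of them, Mpo, below background throughout). Their summed intensity was 280.0 on the treated PPARα-null array against 72.3 to 80.5 on the other arrays. Most of that sum came from S100a8 (106) and S100a9 (105), while Ngp, also called higher, gave 17.7 there. Of 6 lymphocyte markers 0 and 1 were higher, and of 4 cholangiocyte markers 1 and 0. Each count of a gene or marker list above is to be read beside the shares over all named genes. With treatment, 9.38% were higher and 10.0% lower between the wild-type arrays, and 1.49% and 2.74% between the PPARα-null arrays. Among genes above background on an array compared, the shares were 15.2% and 16.2%, and 2.33% and 4.51%, in the same order.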
